A study of Homo sapiens with 14 samples.

Results

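The cytosolic ribosome carries a small and a large subunit, whose proteins are named RPS and RPL, and each protein is encoded by its own gene. The members described here are the rows of the deposited RPKM table (reads per kilobase of transcript, scaled to the mapped reads of a library) whose gene symbol is RPL or RPS followed by a number, with an optional A, L or X, or RPLP0 to RPLP2, or RPSA. The rule found 50 of 21574 rows, 29 of the large and 21 of the small subunit. A further 31 rows, which hold 32 ribosomal protein symbols, join such a gene with overlapping genes, mostly small nucleolar RNAs in its introns. RPSA, RPLP2, RPL5, RPL12, RPL39 and RPS27A are among these joined rows, which are given beside the members where they matter. The table also has 73 rows of mitochondrial ribosomal proteins, the subunits of the other ribosome of the cell, which served for comparison.

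The study set control cells against cells in which ADAR1, the enzyme that deaminates adenosine to inosine in double-stranded RNA, was knocked down (KD). All 14 samples are labelled HepG2, a line from a human liver tumour, and carry either a scrambled siRNA (control) or an siRNA against ADAR1 (KD). The labels and the methods call the transfection stable, and no other allele or treatment is given. RNA-seq has 1 library per condition, and Ribo-seq, which sequences the fragments of mRNA covered by ribosomes, has 2 per condition. PARS-seq, in which purified poly-A RNA was cut in vitro with S1 nuclease (unpaired bases) or RNase V1 (paired bases), has 2 libraries per enzyme and condition.

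The labels and the marker genes did not match. All 10 hepatocyte markers, ALB, AFP, APOA1, APOB, TTR, TF, SERPINA1, FGB, HNF4A and APOH, were under 1 RPKM in every library, with a highest single value of 0.803 and summed levels of 0 to 0.928 RPKM. Of 6 fibroblast markers, 2 reached 1 RPKM in the 6 RNA-seq and Ribo-seq libraries, and COL1A1 had 54.7 and 40.4 RPKM in RNA-seq. The keratins of simple epithelia, KRT8 and KRT18, were higher, with 410 and 372 RPKM and with 311 and 331 RPKM in control and KD RNA-seq, and the mesenchymal filament VIM had 456 and 449; these 3 were chosen after their values were seen. The summed levels were 48.8 to 151 RPKM for the fibroblast list, at most 1.05 for 6 leukocyte markers and at most 0.620 for 4 endothelial markers. The cells are therefore called by their label only, and the part of their identity in the results was not tested. In bulk libraries, fewer cells of a type and less RNA per cell cannot be told apart. The targeted gene ADAR had 54.8 RPKM in control and 15.4 in KD RNA-seq, and 43.6 and 55.5 RPKM in the control and 8.73 and 44.0 in the KD Ribo-seq libraries, so that KD replicate 2 stood close to the control libraries in this assay. LUM, a fibroblast collagen-binding protein, had 112 and 80.4 RPKM in control and KD replicate 1 of Ribo-seq and 0.284 and 0 in replicate 2. Across 11370 genes, Pearson's r of log2 RPKM was 0.79 between the control replicates of Ribo-seq and 0.84 between the KD replicates, while control replicate 1 correlated with KD replicate 1 at 0.96 and control replicate 2 with KD replicate 2 at 0.95. The Ribo-seq libraries thus fell apart by replicate number rather than by condition, and each result on Ribo-seq is given by replicate. Depth, estimated from the RPKM value that 1 read gives, was 995682 to 3322918 reads in Ribo-seq and 40729941 and 30209865 in RNA-seq. For a transcript of 500 bases, 1 RPKM corresponded to 0.498 to 1.66 reads in Ribo-seq and to 20.4 and 15.1 in RNA-seq.

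Ribosomal proteins are made in near equal amounts and are among the most abundant proteins of a growing cell. Their mRNAs are short, stable and abundant, and most begin with a 5′ terminal oligopyrimidine (TOP) tract, a cytosine followed by a run of pyrimidines, through which the mTOR pathway sets how many of them are on polysomes. Their genes have also given rise to many processed pseudogenes, intronless copies of the mRNA scattered over the genome, which makes short reads from these mRNAs hard to place. The sequences below show both properties.

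With the annotated start of the canonical transcript (GENCODE, GRCh37, the hg19 build of the files) and a TOP tract taken as a run of at least 4 pyrimidines from a first C, 36 of the 50 members (72%) began with a tract, against 74.2% of the genes in joined rows, 6.85% of the mitochondrial ribosomal protein genes and 5.72% of 19869 protein-coding genes. The first 20 bases of RPS24, which has the longest tract of the members, and RPL26, which shares the next length with RPS21, of RPL11 and RPS6, which are typical, and of RPS26, RPS27L and RPL39L, which have none at the annotated start, show the contrast. Capitals mark the run of pyrimidines that starts at the first base.
RPS24, chr10:79793621-79793640, plus strand: CTCTTTTCCTCCTTggctgt
RPL26, chr17:8286492-8286511, minus strand: CTCTTCCCTTTTgcggccat
RPL11, chr1:24018296-24018315, plus strand: CTCTTCCTgctctccatcat
RPS6, chr9:19380215-19380234, minus strand: CTCTTTTCCgtggcgcctcg
RPS26, chr12:56435702-56435721, plus strand: gattttcttccgccatccgg
RPS27L, chr15:63449657-63449676, minus strand: gcagatcgcttgcagcttgc
RPL39L, chr3:186857265-186857284, minus strand: gcggtcttagcatccggcgc
Several starts without a tract, such as that of RPS26, hold a run of pyrimidines a few bases further in, and the annotated start need not be the start used in these cells.

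Copies in the genome were counted for every window of 30 bases, about the length of a ribosome footprint, in the coding sequence of each member. A median of 67.3% of a member's windows were also found elsewhere in GRCh37, against 84.5% for the genes of joined rows and 0% for the mitochondrial ribosomal proteins. Of the 50 members, 31 had more than 50% of their windows copied. RPL41, RPL7, RPS26, RPS27 and RPS28 had 100% copied. The windows below stand for both ends of this range: windows of RPS26, RPS28 and RPS27 occur 14, 3 and 6 more times in the genome, while those of RPS27L, RPL11 and RPS21 occur nowhere else. RPS27 and its paralog RPS27L, a p53 target, are aligned at the same place, with capitals at the 5 bases where they differ.
RPS27, chr1:153964042-153964071, plus strand: gAtgctaTaaAatcaccacggtCttTagcc
RPS27L, chr15:63447901-63447930, minus strand: gTtgctaCaaGatcaccacggtTttCagcc
RPS26, chr12:56436209-56436238, plus strand: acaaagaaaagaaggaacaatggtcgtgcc
RPS28, chr19:8386837-8386866, plus strand: gtgcgcgtggaattcatggacgacacgagc
RPL11, chr1:24019099-24019128, plus strand: caggatcaaggtgaaaaggagaaccccatg
RPS21, chr20:60962899-60962928, plus strand: gttgacaaggtcacaggcaggtttaatggc

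The listed levels of the members ran from 0 to 3503 RPKM in control RNA-seq. Their median was 325 RPKM in control and 324 in KD RNA-seq, against 9.31 and 9.20 over all rows, and the members together held 6.26 and 6.61% of the summed RPKM. In Ribo-seq their medians were 116 and 163 RPKM in the control and 128 and 260 in the KD libraries, and their share of the summed RPKM was 2.67 to 5.14%, lowest in control replicate 1 and highest in KD replicate 2. In the PARS-seq columns, each the authors' mean of an S1 and a V1 library, the share was 5.93 to 7.38%.

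The highest member in RNA-seq was RPL8, a protein close to the peptidyl transferase centre, with 3503 RPKM in control and 3657 in KD, and with 827 and 999 (control) and 866 and 979 (KD) in Ribo-seq. RPLP1, an acidic protein of the stalk that recruits the GTPase translation factors, followed with 2376 and 3050 RPKM in RNA-seq. RPL19, which reaches across the interface to the small subunit, had 1578 and 1424 RPKM. RPL11, part of the 5S particle and an inhibitor of MDM2 when ribosome assembly is disturbed, had 1540 and 1668, and RPL18 had 1484 and 1797. With 1 RNA-seq library per condition the spread of these levels is not known, and the neighbours RPL19, RPL11 and RPL18 changed places between the conditions.

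At the other end, RPS18 was listed at 0 in every column. It lies on chromosome 6 within 28500000 to 33500000, where 72.1% of 140 protein-coding rows were at 0 in all columns, against 5.44% of the rows elsewhere on that chromosome. RPL3L and RPL10L, paralogs of RPL3 and RPL10 known from muscle and testis, were at 0 to 0.272 and at 0 to 0.514 RPKM, and few of their windows were copied (0 and 5.06%). Their parent genes, in joined rows, had 776 (RPL3) and 248 (RPL10) RPKM in control RNA-seq. RPL39L, a paralog of RPL39 known from testis, was higher, with 91.2 and 84.0 RPKM in RNA-seq. RPL7, however, an essential protein of the large subunit, had 0.733 and 0.237 RPKM in RNA-seq and 0 to 0.497 in Ribo-seq. RPS26 at the mRNA exit channel had 3.28 and 6.60, RPS28 had 3.92 and 4.25, RPL9 had 5.29 and 6.47 and RPS27 had 5.39 and 4.90 RPKM in RNA-seq. RPL7, RPS26, RPS28, RPL9 and RPS27 all encode core proteins of the ribosome, and their listed levels lay far below those of RPL8 or RPL11.

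**Figure D1:**
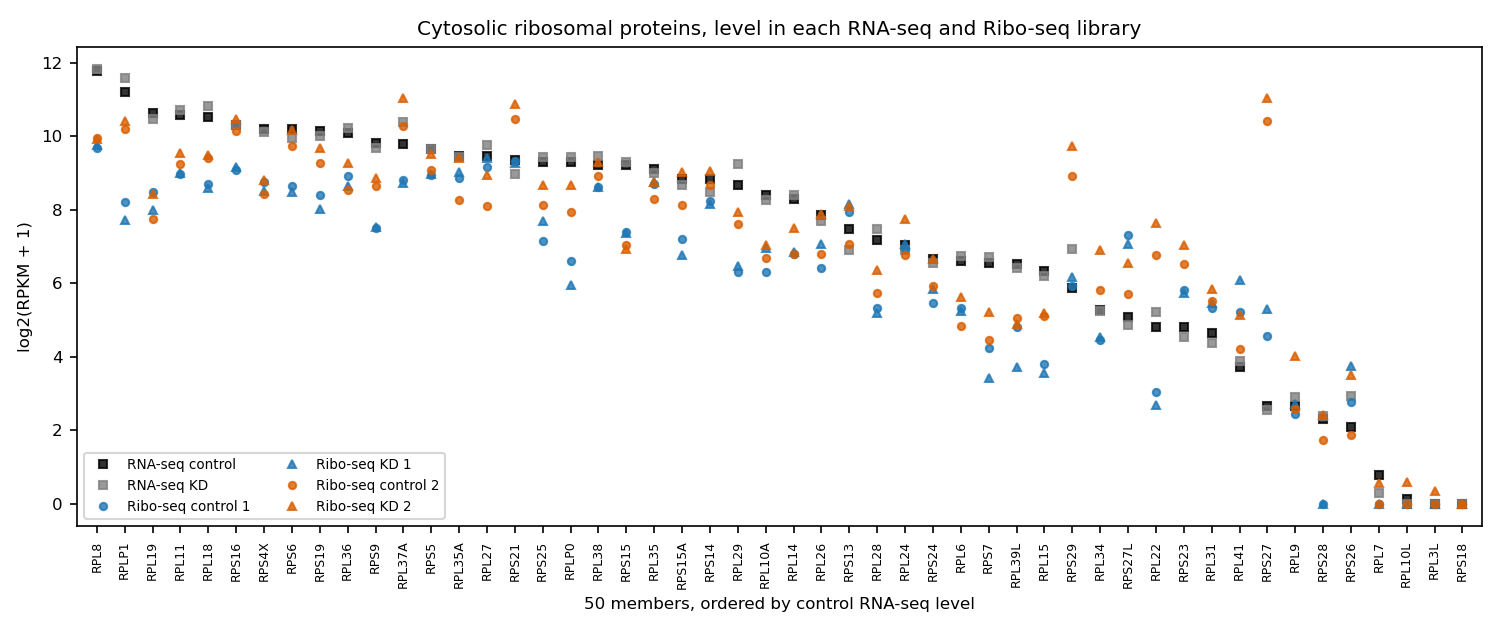
The vertical axis gives log2(RPKM + 1) of each of the 50 members in the 2 RNA-seq libraries (squares) and the 4 Ribo-seq libraries (circles for control, triangles for KD, blue for replicate 1 and orange for replicate 2), ordered by control RNA-seq. RPL8 stands first and RPS18 last, control and KD squares lie close together, and several members such as RPS27, RPL22 and RPS29 have orange points far above the blue ones.

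The low levels went with copied windows. The medians in control RNA-seq were 1085 RPKM for the 7 members with under 25% of their windows copied, 751 for the 10 with 25 to 50%, 397 for the 14 with 50 to 80%, 95.3 for the 12 with 80 to under 100%, RPS18 at 0 among them, and 3.92 for the 5 with 100% (RPL3L and RPL10L were left out here). Over 47 members, without RPS18 as well, Spearman's rho of the level with the share of copied windows lay between -0.56 and -0.78 in the 10 columns. These are descriptions across genes, which share libraries and are not independent. According to the methods, the RPKM values count reads placed at 1 position of the whole genome, while the read starts of PARS-seq count reads placed at 1 position among the canonical transcripts of UCSC. The same PARS-seq libraries can thus be read in both ways. Read starts could be followed for 35 transcripts of ribosomal proteins, 21 with a row of their own and 14 in joined rows. Only these identifiers are paired with a symbol in the study's table of transcripts that was used here. The study listed there only transcripts above a minimum of read starts, with structure changed in the same direction in both replicates. Copied members with few read starts could therefore not be followed.

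Among the transcripts that could be followed, the copied members were not low in read starts. Scaled read starts are given per kilobase of transcript and for libraries brought to the size that RPKM assumes. RPL7 had 28791 to 68714 read starts in the 8 libraries and a control mean of 520 scaled read starts per kilobase, beside 1.74 RPKM. RPS26 had 831 scaled read starts per kilobase beside 4.16 RPKM, RPS27 had 1032 beside 17.5, and RPS28 had 970 beside 5.81. For comparison, RPL11 had 1191 scaled read starts per kilobase beside 1861 RPKM, and RPS21, the highest in both, had 4275 beside 5653. Per kilobase, RPS26, RPS27 and RPS28 therefore stood near RPL11 in read starts and far below it in RPKM. Among the 21 transcripts with a row of their own, Spearman's rho with the share of copied windows was -0.77 for RPKM, -0.08 for read starts per kilobase and 0.88 for the ratio of the 2 measures. The 8 with at least 80% of their windows copied had medians of 900 scaled read starts per kilobase and 48.6 RPKM, while the 7 with under 50% had 1191 and 1375. The order of the members by RPKM was thus not their order by read starts. Ratios of the same gene between libraries followed the copies less. Over the 46 members that passed the filter, Spearman's rho with the copied share was -0.06 to 0.19 for the ratio of Ribo-seq to RNA-seq. It was 0.22 to 0.39 for the ratio of KD to control in Ribo-seq and RNA-seq, and the PARS-seq ratios were not included.

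**Figure D2:**
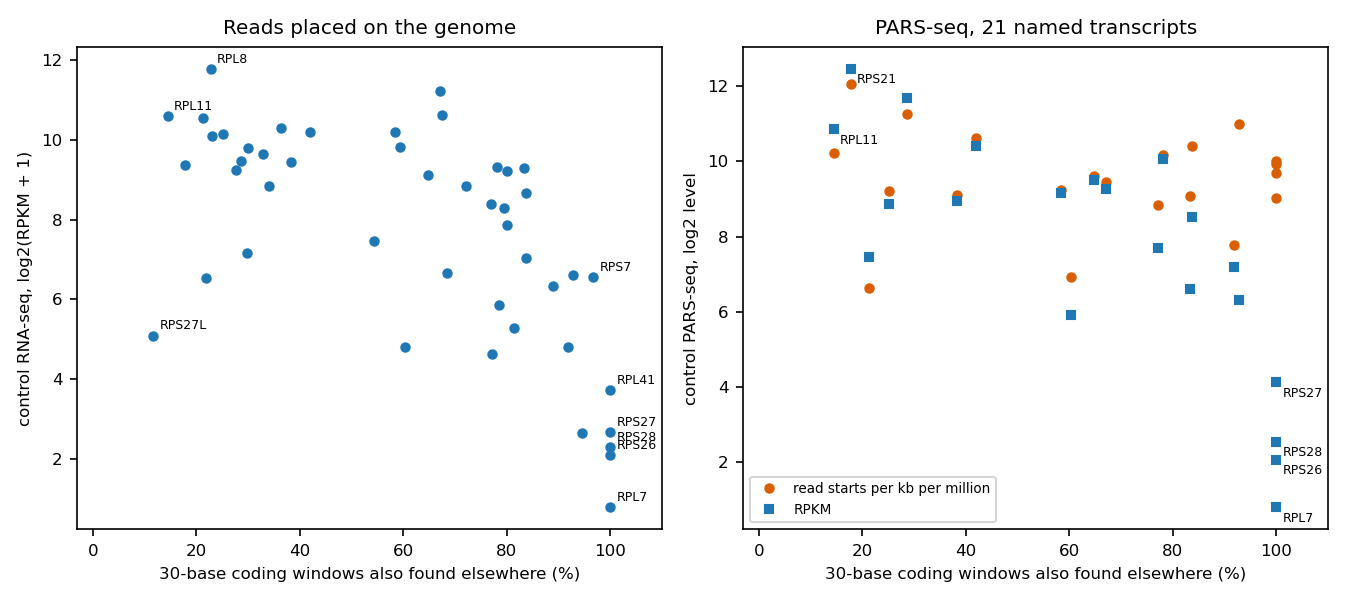
The left panel plots control RNA-seq as log2(RPKM + 1) against the percentage of a member's 30-base coding windows that occur elsewhere in the genome, and the right panel plots 21 PARS-seq transcripts by log2 scaled read starts per kilobase (orange circles) and log2 RPKM (blue squares), as control means. In both panels the RPKM points drop at 100% copied windows, where RPL7, RPS26, RPS27 and RPS28 sit, while the orange circles there stay at the height of the others.

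As a group the 35 transcripts were covered deeply, but a minimum of read starts was part of the choice by which they were named. Their median was 673 scaled read starts per kilobase in control, 30.2-fold that of all 4722 transcripts listed in every library, and the lowest of them, RPSA with 68.9, lay above 81.2% of all transcripts. The 35 transcripts held 1.56 to 3.23% of the read starts of each library. The highest share was in S1 control replicate 1, which lists only 4722 transcripts, and the next was 2.74% in S1 KD replicate 2. Other ribosomal protein transcripts were not followed.

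The next comparison asked whether the members were more or less covered by ribosomes than their mRNA level would give, which the study treats as translation efficiency. The ratio of Ribo-seq to RNA-seq RPKM, each with 1 added, had a median over 46 members of -1.36 and -0.85 (log2) for control and of -1.48 and -0.13 for KD, replicate 1 first, against -0.34, -0.55, -0.32 and -0.38 over all genes. In replicate 1 the members therefore lay below the median gene by about 1 log2 unit in control (-1.02 after centring) and KD (-1.16), while in replicate 2 the difference was -0.30 in control and 0.24, above the median gene, in KD. The mitochondrial ribosomal proteins had medians of -0.03 (control) and 0.10 (KD) in replicate 1 and of -0.96 and -0.43 in replicate 2, and also changed between replicates. The 4 members RPL3L, RPL7, RPL10L and RPS18 had a mean under 1 RPKM and were not tested.

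In limma over all 6 libraries, with condition in the model and the single RNA-seq libraries taken to vary like Ribo-seq, 13 of 46 members (28.3%) passed an adjusted p of 0.05, all lower in Ribo-seq. The background was 24.9% of 11165 genes in either direction and 19.8% lower in Ribo-seq, so that the share of members was not far from that of all genes. The log2 differences ran from -2.39 to -1.32 with adjusted p of 0.0200 to 0.0463. By role, 10 of 26 large subunit and 3 of 20 small subunit proteins passed, and of 30 joined rows 2 were higher and 7 lower.

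RPL19 had the largest difference of these 13. Its Ribo-seq values were 354 and 214 RPKM in control and 256 and 343 in KD, all below its RNA-seq values of 1578 and 1424, and the log2 difference was -2.39 ± 0.37 (SE, adjusted p = 0.0200 in limma). RPS7, a protein of the small subunit, had 17.9 and 21.1 RPKM in control Ribo-seq and 9.78 and 36.6 in KD, against 93.7 and 104 in RNA-seq, a difference of -2.30 ± 0.53 (adjusted p = 0.0319), with 96.7% of its windows copied. RPS15, whose tail reaches towards the decoding centre, had 166 and 131 against 164 and 122 RPKM in Ribo-seq, and 593 and 626 in RNA-seq (-2.07 ± 0.32, adjusted p = 0.0200). RPL8 was lower by -1.97 ± 0.33 (adjusted p = 0.0214). Of the 13, RPL19, RPS7, RPS15, RPL10A, RPL39L and RPS4X have no TOP tract at their annotated start, while RPL8 and the others begin with one. Of all 46 members tested, 34 begin with such a tract.

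RPL39L (-1.85 ± 0.41), RPL28 (-1.67 ± 0.41) and RPL18 (-1.62 ± 0.43) passed as well, with no overlap between their Ribo-seq and RNA-seq values. RPL10A, which forms the flexible stalk by which the empty tRNA leaves, was lower by -1.58 ± 0.32 and RPS4X, encoded on the X chromosome, by -1.53 ± 0.33. RPL11 (-1.46 ± 0.35), RPL6 (-1.42 ± 0.31), RPL14 (-1.36 ± 0.33) and RPL36 (-1.32 ± 0.36) complete the list. Of the 13, RPL8, RPL11, RPL18, RPL28, RPL36 and RPL39L have under 30% of their windows copied.

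These calls depended on single libraries. Without Ribo-seq control replicate 1, 6 members passed (14.3% of all genes), and without control replicate 2, 20 passed, 3 higher and 17 lower (39.0% of all genes). Without KD replicate 1 or KD replicate 2, 0 passed (0.785 and 0.594% of all genes), while 19 and 26 members had an unadjusted p under 0.05 in limma. When each library was centred on its median gene, 9 passed, 3 higher and 6 lower (17.3% of all genes). The count of members thus rose and fell with the share of all genes that passed. The members' median log2 difference was -0.77 over all 6 libraries, -0.58 without KD replicate 1 and -1.12 without KD replicate 2. As a description without a test, Ribo-seq lay below RNA-seq in all 4 pairs for 25 of 46 members (54.3%, background 46.5%) and above it in all 4 for 5 (10.9%, background 18.8%).

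The 5 members with more Ribo-seq than RNA-seq in all 4 pairs were RPL31, RPL41, RPS23, RPS27 and RPS27L. RPS23, a protein of the decoding centre, had 55.5 and 91.0 RPKM in control and 52.4 and 131 in KD Ribo-seq, above 27.0 and 22.1 in RNA-seq (log2 difference 1.62 ± 0.47, adjusted p = 0.0542 in limma). RPS27L had 158 and 51.1 in control and 133 and 92.1 in KD Ribo-seq, above 33.0 and 28.1 in RNA-seq (1.68 ± 0.52, adjusted p = 0.0612). RPL31, at the exit of the nascent chain, had 39.2 and 45.2 against 43.5 and 56.8, above 23.9 and 19.7 (1.04 ± 0.30, adjusted p = 0.0519). None of the 3 passed the threshold under the model above, while RPL31 passed in 5, and RPS23 and RPS27L in 3 each, of the 10 alternative settings. In one of these, with the replicate number as a block, RPS23, RPS27L, RPL31, RPL41 and RPS27 all passed as higher in Ribo-seq (adjusted p of 0.000240 to 0.0113 in limma), as did 62.7% of all genes in either direction. Both RNA-seq libraries are numbered replicate 1, so that the blocked difference rests on Ribo-seq replicate 1 alone. RPL41, the smallest of the ribosomal proteins, had 36.1 and 17.5 RPKM in control and 67.1 and 34.2 in KD Ribo-seq, and 12.2 and 13.9 in RNA-seq, with all of its windows copied.

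RPS27 differed most between replicates. In Ribo-seq it had 22.9 RPKM in control and 38.5 in KD replicate 1, against 1361 and 2092 in replicate 2, beside 5.39 and 4.90 in RNA-seq. The log2 ratio to RNA-seq was thus 1.90 (control) and 2.74 (KD) in replicate 1 and 7.74 and 8.47 in replicate 2. RPL22, a protein that ribosomes can lack, had 7.23 and 108 RPKM in control and 5.46 and 197 in KD. RPS29 had 59.6 and 481 against 71.5 and 849, RPLP1 had 294 and 1181 against 210 and 1376, and RPS28 had 0 and 2.36 against 0 and 4.35. These 5 were chosen by the difference between their control replicates, and the KD libraries, which the choice did not use, also had the higher value in replicate 2.

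**Figure D3:**
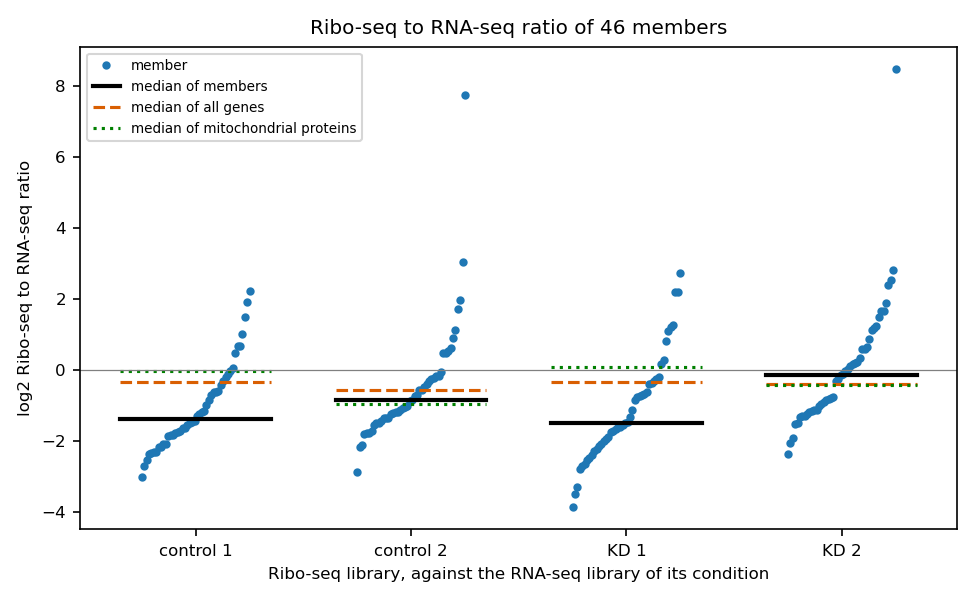
Each point is the log2 ratio of Ribo-seq to RNA-seq (RPKM + 1) of 1 of 46 members in 1 Ribo-seq library against the RNA-seq library of its condition, sorted within the library, with lines for the medians of the members, of all genes and of the mitochondrial ribosomal proteins. The median of the members lies below that of all genes in control 1, control 2 and KD 1 and above it in KD 2, and RPS27 is the point near 8 in both replicate 2 libraries.

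The stalk proteins differed among themselves. RPLP0, the base of the stalk, had log2 ratios of -2.69 and -1.34 in control and RPLP1 of -3.01 and -1.01, and RPL12, in a joined row, had -2.43 and -1.46. RPLP2, the partner of RPLP1 in the stalk dimers and also in a joined row, had 0.03 and 1.24. None of the 4 passed the test under the model above, while with a replicate block RPLP0 (-3.09 ± 0.32, adjusted p = 0.000173 in limma) and RPLP1 (-3.43 ± 0.27, adjusted p = 7.47e-05) passed as lower in Ribo-seq, again on replicate 1 alone. Among the partners of the 5S rRNA, RPL11 had ratios of -1.63 and -1.34 and RPL5, in a joined row, of -0.51 and 0.07. RPS6, the target of the S6 kinases, had 401 and 853 RPKM in control Ribo-seq and 1177 in control RNA-seq, ratios of -1.55 and -0.46. RPSA, the laminin receptor, and RPS27A, the fusion with ubiquitin, both in joined rows, had positive ratios of 0.59 and 1.78 and of 0.55 and 0.30. RPL39, which lines the exit tunnel and whose row is joined with a small nucleolar RNA, had 1.24 RPKM in control RNA-seq and 20.7 and 59.8 in control Ribo-seq, with 100% of its windows copied.

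The knockdown was then compared with the control. In Ribo-seq, 0 of 46 members passed an adjusted p of 0.05 in limma (background 0%, 0 of 10882 genes), and at an unadjusted p of 0.05 1 member, RPS26, and 43 genes in all passed. The SE of the members' log2 differences was 0.48 to 2.59 with a median of 0.68. By replicate, the median log2 ratio of KD to control over the members was 0.01 in replicate 1, where 23 of 46 were above 0, and 0.63 in replicate 2, where 43 of 46 were (background 61.6%). All genes had medians of -0.02 and 0.16, and the mitochondrial ribosomal proteins of -0.13 and 0.52, with 68 of 73 above 0 in replicate 2. The rise in replicate 2 was thus shared with the other ribosome's proteins, and it was not seen in replicate 1. ADAR itself was at 43.6 RPKM in control and 8.73 in KD in replicate 1, and at 55.5 and 44.0 in replicate 2. A link between its level and the members' ratios was not tested.

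In both replicates 22 of 46 members were above and 2 below control (background 31.3 and 21.8%). Both KD libraries lay above both control libraries in 9 members, RPL9, RPL10A, RPL14, RPL24, RPL26, RPL35, RPL35A, RPS13 and RPS26 (background 10.7%), and below them in 0 (background 7.12%). With 2 libraries against 2, the exact permutation test of 1 gene cannot give a two-sided p below 0.333. RPS26 had the largest difference, with 5.89 and 2.65 RPKM in control and 12.5 and 10.4 in KD, a log2 difference of 1.31 ± 0.48 (SE, adjusted p = 1.00 in limma, and 0.00384 with the replicate block, where 1.31% of all genes passed). It was 3.28 in control and 6.60 in KD RNA-seq, and 3.65 and 4.68 against 4.34 and 5.88 in PARS-seq, so that the KD value was higher in each replicate and assay in RPKM. In PARS-seq read starts the log2 difference of KD from control was -0.24 ± 0.27 (SE) with S1 and 0.23 ± 0.35 with V1. At the depth of Ribo-seq these levels rest on few reads, and all windows of RPS26 are copied.

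RPL26, a protein at the tunnel exit and, like RPS26, mutated in Diamond-Blackfan anemia, had 84.6 and 111 RPKM in control and 135 and 236 in KD Ribo-seq, with 231 in control and 206 in KD RNA-seq. RPL9 had 4.48 and 5.04 in control against 5.56 and 15.3 in KD. RPL41 had 36.1 and 17.5 against 67.1 and 34.2, with overlap between the groups but a rise in each replicate. RPS27 had 22.9 and 1361 against 38.5 and 2092. Only 2 members were lower in both replicates, RPL39L with 27.1 and 32.1 against 12.2 and 29.0, and RPS15 with 166 and 131 against 164 and 122. None of these differences passed the test.

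**Figure D4:**
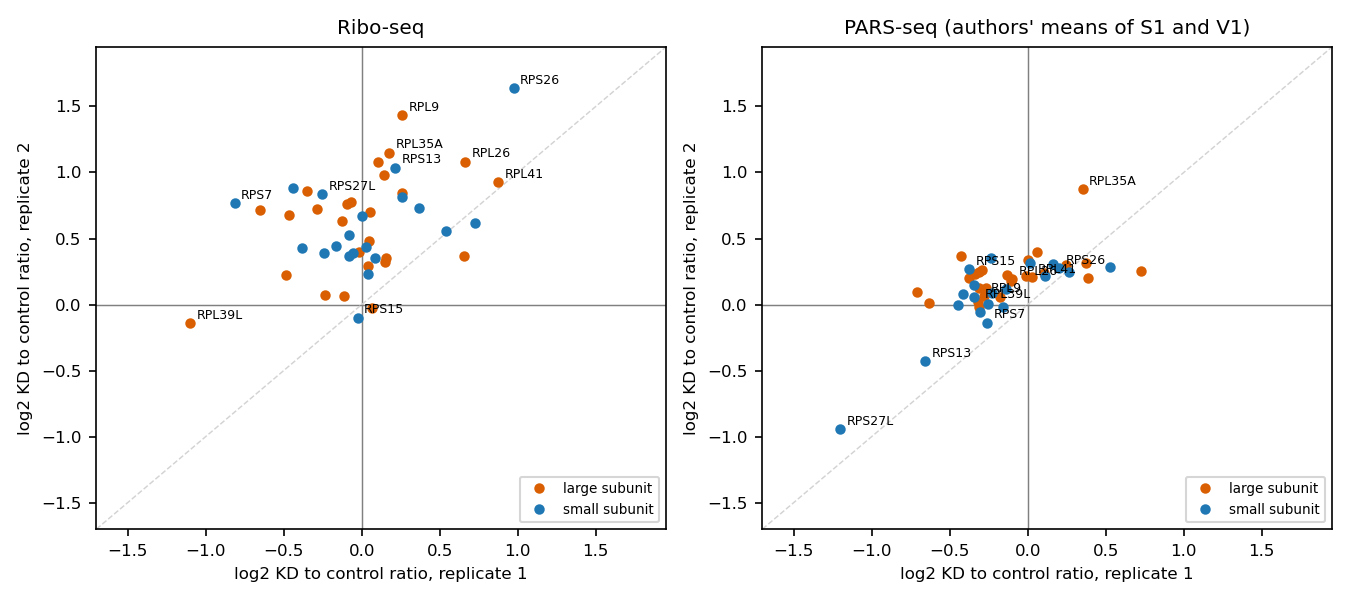
Each point is 1 member, placed by its log2 ratio of KD to control in replicate 1 (horizontal) and replicate 2 (vertical), for Ribo-seq on the left and for the authors' PARS-seq means on the right, with large subunit proteins in orange and small subunit proteins in blue. On the left nearly all points lie above the horizontal line while they spread to both sides of the vertical one, and on the right the points of RPS27L and RPS13 stand apart at the lower left and that of RPL35A at the upper right.

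The groups by role had positive medians in replicate 2 and medians on both sides of 0 in replicate 1, and differences between groups were not tested. Large subunit proteins had medians of 0.04 and 0.69 in the Ribo-seq replicates and small subunit proteins of -0.01 and 0.54. Members with a TOP tract had 0.04 and 0.59, and those without had -0.13 and 0.68. The 4 stalk proteins had -0.35 and 0.35, the 2 partners of 5S rRNA -0.22 and 0.28, and 7 genes mutated in Diamond-Blackfan anemia 0.37 and 0.77. Within the last group, RPS24 had 43.4 and 60.4 RPKM in control and 56.2 and 101 in KD, RPL35A had 462 and 305 against 522 and 677, and RPS19, the gene most often mutated in this disease, had 335 and 612 against 257 and 826. RPS7 had 17.9 and 21.1 against 9.78 and 36.6.

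In RNA-seq, with no replicate, the median log2 ratio of KD to control was -0.00 over 46 members, of which 22 were above 0 (background 48%), -0.01 over all genes, 0.13 over the large and -0.10 over the small subunit proteins. The largest rise was that of RPS29, with 57.3 RPKM in control and 121 in KD (1.06), and RPS26 followed (0.83). RPS13 had 177 in control and 119 in KD, the lowest ratio (-0.56). The ratio of Ribo-seq to RNA-seq changed between conditions in 0 of 46 members (background 0%, 0 of 11165 genes; at an unadjusted p of 0.05, 0 members and 4 genes in limma), with a median SE of 1.03.

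In the PARS-seq means the median log2 ratio over 47 members was -0.23 in replicate 1, with 15 above 0 (background 53.3%), and 0.20 in replicate 2, with 40 above 0 (background 54.9%), against 0.04 and 0.04 over all genes, so that the sign turned between replicates. In both replicates 15 members were above and 7 below control (background 45.1 and 36.9%). RPL7, RPL11, RPL14, RPL22, RPL35A, RPLP1, RPS21 and RPS29 had both KD values above both control values (8 of 47, background 33.3%), and RPS7, RPS13, RPS19, RPS25 and RPS27L had both below (5 of 47, background 27.1%). These shares of members lay under those of all genes. RPS27L had 141 and 107 RPKM in control and 60.5 and 55.1 in KD PARS-seq, the lowest ratios of all members. In RNA-seq it had 33.0 and 28.1 RPKM, and in Ribo-seq it was lower than control in replicate 1 and higher in replicate 2. Its paralog RPS27 had 17.3 and 17.7 against 17.5 and 22.3 in PARS-seq. RPS13 had 235 and 232 against 149 and 172 in PARS-seq, in the direction of its RNA-seq values, while its Ribo-seq values of 247 and 133 in control and 287 and 274 in KD went the other way. RPL35A had 3508 and 3059 against 4483 and 5596, the highest ratio in replicate 2 (0.87).

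The read starts per transcript allowed a test with 2 libraries per condition and enzyme. With S1, 0 of 35 transcripts passed an adjusted p of 0.05 in limma (background 20.1%, 948 of 4721 transcripts), and with V1 0 of 35 (background 9.95%, 1680 of 16885), and at an unadjusted p of 0.05 none passed with either enzyme. The log2 differences of KD from control were -0.43 to 0.42 with S1 (adjusted p of 0.222 to 0.989) and -0.51 to 0.23 with V1 (adjusted p of 0.449 to 0.980). The SE was about 0.26 with S1 and 0.35 with V1 in the median transcript. Without S1 control replicate 2, 7 transcripts passed, all lower in KD, with log2 differences of -0.74 to -0.66, among them those of RPL23, RPLP0 and RPS6, a share below that of all transcripts under this setting (38.8%). The median over the 35 was -0.24 with S1 (all transcripts -0.36) and -0.28 with V1 (all -0.14) on library totals, and it was 0.12 (all 0.00) and -0.11 (all 0.02) with TMM scaling, so that the sign for S1 turned with the scaling. S1 control replicate 1 lists only 4722 transcripts, while the other 7 libraries list 21052 to 22402. The 35 transcripts come from a table chosen by a change in structure and a minimum of read starts, so their V1 and S1 balance is given as values only.

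The balance of the enzymes differed widely between members. On library totals, the V1 over S1 ratio (log2) had medians of -0.06 and -0.02 in control and -0.29 and 0.07 in KD (all transcripts -0.13, -0.06, -0.21 and 0.08). On totals without the most covered transcript the medians were 0.20 and 0.17 in control and 0.04 and 0.10 in KD (all transcripts 0.13, 0.12, 0.12 and 0.11), so that 3 of the 4 signs turned with the scaling. RPS21 and RPLP0 were among the most V1-cut transcripts. RPS21 had control values of 1.59 and 1.45 and KD values of 1.38 and 1.34, and RPLP0 had 1.05 and 1.30 against 1.09 and 1.40. RPL24, which bridges to the small subunit, RPL12 and RPL35A were among the most S1-cut. RPL24 had -1.91 and -1.76 in control against -2.15 and -2.20 in KD, and RPL12 had -1.73 and -1.87 in control, with lower values in both KD replicates. RPL35A, where a single base held 54.5 to 58.1% of the S1 read starts, had -1.54 and -1.33 against -2.26 and -2.24. It thus had lower values in both KD replicates. RPS26 had -1.66 and -1.41 against -1.23 and -0.92, with higher values in both. Replicates of a condition differed as well, as in RPL11 with -0.55 and 0.15 in KD.

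Cuts were concentrated at few bases that recurred. The base with the most S1 read starts was the same in all 4 S1 libraries in 25 of 35 transcripts (71.4%), and that of V1 in 28 of 35 (80%), against 59.0 and 51.0% of 4170 transcripts with at least 1000 read starts in every library. It held a median of 11.7% of a transcript's S1 and 7.34% of its V1 read starts (all transcripts 8.46 and 4.01%). In none of the 35 did both enzymes have the same top base (all transcripts 0.552%), and in 11 (31.4%, all transcripts 21.7%) the 2 bases lay within 10 bases of each other. These members are covered more deeply than most transcripts, and they were named from transcripts whose structure changed in the same direction in both replicates. The part of coverage and of this choice in these shares was not tested.

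In RPL35A, a large subunit protein mutated in Diamond-Blackfan anemia, base 50 of 511, counted from the first base of the transcript, held 54.5 to 58.1% of all S1 read starts, and base 44 held 14.9 to 16.0% of the V1 read starts. In RPL37, base 110 held 37.4 to 46.9% of S1 and base 116 held 7.43 to 13.9% of V1 read starts. In RPS26, base 497 held 34.2 to 35.9% of S1 read starts in all 4 libraries, and in RPS19, base 694 held 26.2 to 31.3%. RPL22 had its top S1 base at 58 (20.3 to 28.6%) and its top V1 base at 52, and RPL11 had them at 236 and 231. RPS27A had the most concentrated V1 pattern, with 24.0 to 34.7% of V1 read starts at base 345. Each of the bases given here was the top base of its enzyme in both control and both KD libraries.

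**Figure D5:**
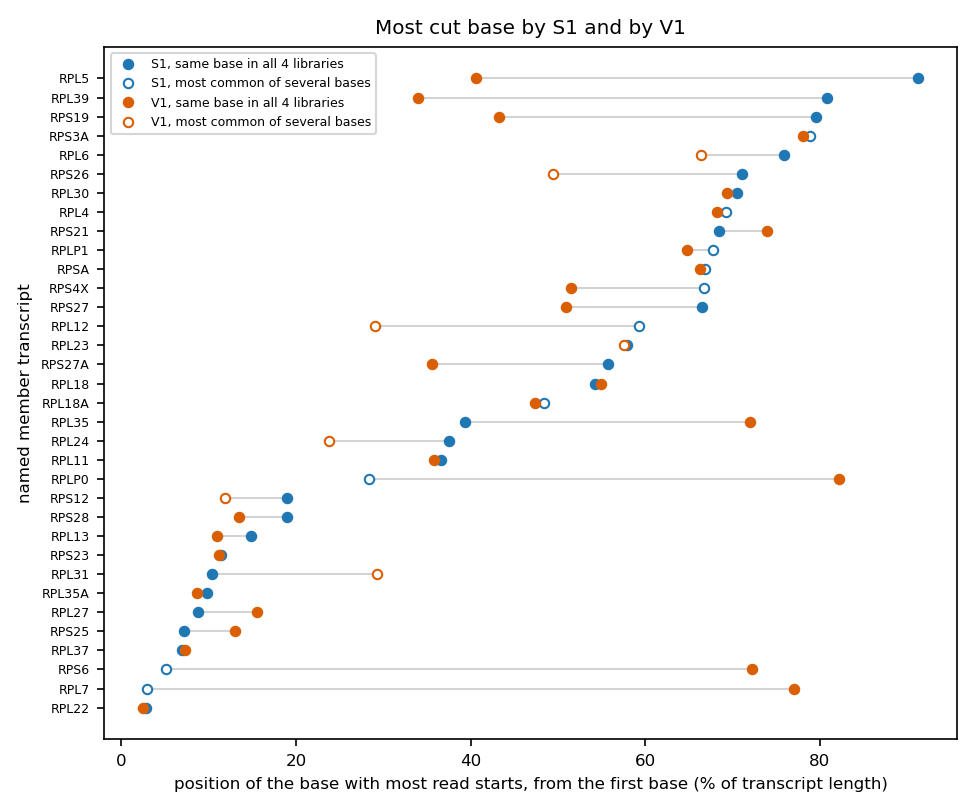
Each row is 1 of 34 of the named transcripts, with the position of the base that has the most S1 (blue) and the most V1 (orange) read starts, in percent of the transcript length from its first base. Filled circles mark a base that was the top base in all 4 libraries of the enzyme (24 of those shown for S1 and 27 for V1), and pairs such as those of RPL22, RPL37, RPL35A and RPL11 nearly touch.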

How the data were processed

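The data consisted of 14 samples, grouped by their labels. The authors used cutadapt and Bowtie2 (versions not given in the sources used here), kept uniquely placed reads on hg19, counted them on RefSeq genes and deposited RPKM values; each PARS-seq column is the authors' mean of an S1 and a V1 RPKM. The deposited read starts are unscaled whole numbers per base of UCSC transcripts, summing to 96618292 to 214584779 per library, and were named only through the study's table of transcripts. Depth behind RPKM was estimated, and precision from counting alone is too optimistic, since reads carried no molecular identifiers. The labels do not give the source of replicates, so that p-values measure the spread between these samples.

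Genes with a mean of at least 1 RPKM were compared on log2(RPKM + 1), which understates changes of low genes, with limma 3.58.1 (R 4.3.3, mean trend, two-sided, Benjamini-Hochberg over all genes). Sums of read starts, with 0.5 added and a minimum of 15 over the libraries and of 10, scaled to the median depth, in 2 of them, were tested likewise, although a count table had been planned for. The tests were tried on simulated data. Windows of 30 bases were matched exactly on GRCh37 with Python 3.11.15 (pandas 2.3.3, scipy 1.17.1, matplotlib 3.10.9). Named genes were those called, the 5 highest and lowest levels and ratios, the 5 largest changes shared by both Ribo-seq replicates, the 5 with the most different control replicates, paralog pairs and role groups; those with extreme RNA-seq or PARS-seq ratios or read starts were named after their values were seen. The members and lists were chosen with earlier results of these data known. Alternatives covered pseudocount, filter, centring, scaling, replicate block and leaving out each replicate. Some single-gene results are not reported here.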

Additional observations from a re-analysis of the deposited data

How the results depend on the processing

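The counts of members and the medians were recomputed under each alternative, and 103 of the values stayed at the same count or close to it, or, for medians, within the spread between replicates, while 9 moved further and 1 reversed. Medians near 0 changed sign within that spread, from 0.01 to between -0.08 and -0.01 under 3 alternatives for KD against control in Ribo-seq replicate 1, and from -0.00 to 0.01 after centring in RNA-seq. For Ribo-seq against RNA-seq levels, where 13 members passed, 3 passed with no filter on low values and 0 to 20 when 1 Ribo-seq library was left out. For S1 read starts, where 0 passed, 0 to 7 did when 1 library was left out. The median ratio of Ribo-seq to RNA-seq, centred on all genes, was -0.30 in control replicate 2 and 0.24, with its sign reversed, in KD replicate 2. The cause was not tested. Counting joined rows as members, or only members with under 50% of windows copied, both chosen after seeing the data, kept the medians within the spread. With no filter, 2257 of 21574 genes and 0 members passed for the change of the ratio between conditions, against 0 of 11165 genes with the filter. The residual spread in this fit comes from Ribo-seq alone, and rows without Ribo-seq reads have none of their own. The count is therefore not a contrast with the members.

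The replicate numbers are not tied to a shared batch by the labels, and there are 2 pairs. Deviations from the group means correlated between same-numbered libraries at 0.81 in Ribo-seq, 0.47 in S1 and 0.39 in V1. With the replicate block, 1 member passed in Ribo-seq (RPS26, log2 1.31 ± 0.31, adjusted p = 0.00384 in limma, with 143 of 10882 genes), and 36 passed between Ribo-seq and RNA-seq, 6 higher (RPL31, RPL41, RPS23, RPS26, RPS27 and RPS27L) and 30 lower, with 7005 of 11165 genes. Since RNA-seq has only replicate 1, the latter count compares RNA-seq with Ribo-seq replicate 1 alone and is no paired result over both replicates. The block left 0 members called for the change of the ratio and for S1 and V1 read starts. Depth limits the Ribo-seq values of short members, where 1 RPKM is about 1 read.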

Other observations

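Genes that build or accompany the ribosome were counted from lists that were chosen with earlier results of these data known. Of 33 ribosome assembly factors, 22 were above control in both Ribo-seq replicates and 0 below (background 31.3 and 21.8%), with medians of 0.20 and 0.61 (log2), and in the PARS-seq means 25 were above and 3 below (background 45.1 and 36.9%), with medians of 0.47 and 0.42. In RNA-seq their median was 0.14 and 23 of 33 were above control (background 48%). Of 16 other mRNAs known to carry a TOP tract, such as elongation factors, 10 were above control in both Ribo-seq replicates and 2 below, and 11 above and 2 below in PARS-seq. None of the genes in either list passed limma in Ribo-seq (adjusted p under 0.05, background 0%), and at an unadjusted p of 0.05 none did.

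Between Ribo-seq and RNA-seq levels, 6 of 33 assembly factors passed, 1 higher and 5 lower, and 4 of 16 TOP mRNAs, 1 higher and 3 lower, beside 24.9% of all genes.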
